A study of Mus musculus with 2 samples.

Results

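Elastic fibre and microfibril genes of the embryonic stomach were described from 10 genes, chosen by name and found in both gene tables among 43346 Ensembl genes. They are the elastin gene Eln, the fibrillin genes Fbn1 and Fbn2, the microfibril-associated genes Mfap2 and Mfap4, the fibulin genes Fbln1, Fbln2 and Fbln5, and the lysyl oxidase genes Lox and Loxl1. The study sequenced total RNA of whole stomachs from B6NCrl mouse embryos at embryonic day 15.5, with no second condition. Its single group has 2 biological replicates, each a pool of male and female embryos, with 78 embryos in replicate 1 and 62 in replicate 2. The pools are mixtures of all stomach cells, so more cells of a type and more RNA per cell cannot be told apart, and no level is that of 1 embryo. All errors are SDs over the 2 libraries (n = 2), and no exact test over 2 values can reach significance.

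Elastic fibres let a tissue stretch and recoil. An elastic fibre has a core of crosslinked elastin laid on a scaffold of microfibrils, which are polymers of fibrillin. Lysyl oxidases oxidise lysines of tropoelastin so that its molecules can crosslink, and fibulins help to bring tropoelastin, the crosslinking enzymes and the microfibrils together. Microfibrils also exist without elastin, and they hold latent TGF-beta near cells. In hollow organs such as the stomach these fibres lie in the wall, among fibroblasts and smooth muscle and around vessels.

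Fbln1, a fibulin of many embryonic matrices, was mainly present as the transcript Fbln1-202. The coding parts of Fbln1-202 and Fbln1-201 share 14 exon segments and then take different ends, so that Fbln1-202 has 685 codons and Fbln1-201 has 705. The lengths of these coding parts and their ends match the fibulin variants known as C (the single last exon) and D (3 last exons). Fbln1-202 ends in 1 exon of its own (GRCm38 chr15:85251445-85251885, plus strand), which holds 352 of its coding bases. Fbln1-201 skips it and ends in 3 exons (chr15:85263259-85263401, chr15:85265250-85265381 and chr15:85285040-85286535), which hold 412 coding bases. The 2 junctions are given because the choice of end separates the transcripts. The last 30 shared bases (chr15:85244277-85244306) are in lower case and the first 120 bases of each end in capitals, all of them coding and read from the GENCODE M21 transcripts.
Fbln1-202: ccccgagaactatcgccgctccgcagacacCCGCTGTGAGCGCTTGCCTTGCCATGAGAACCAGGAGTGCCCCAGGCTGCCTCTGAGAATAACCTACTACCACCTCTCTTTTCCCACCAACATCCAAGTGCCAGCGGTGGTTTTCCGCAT
Fbln1-201: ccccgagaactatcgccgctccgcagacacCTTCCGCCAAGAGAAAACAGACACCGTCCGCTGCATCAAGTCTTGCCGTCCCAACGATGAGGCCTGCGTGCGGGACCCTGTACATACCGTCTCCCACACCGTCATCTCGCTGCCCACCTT

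The transcript tables placed 86.4% of the TPM of Fbln1 (a length-corrected abundance scaled to a fixed total per library) to Fbln1-202 in replicate 1 and 87.3% in replicate 2, or 86.8 ± 0.629%. Fbln1-201 took 13.5% in replicate 1 and 12.6% in replicate 2, or 13.1 ± 0.580%. As levels, Fbln1-202 stood at 166 TPM in replicate 1 against 149 TPM in replicate 2, and Fbln1-201 at 25.9 and 21.6 TPM. The C-type end was therefore 6.42 times as abundant as the D-type end in replicate 1 and 6.90 times in replicate 2, a log2 ratio of 2.74 ± 0.0749, which is many times the spread between the libraries. The remaining transcript, Fbln1-203, an annotated processed transcript, took 0.16% in replicate 1 and 0.10% in replicate 2. Because Fbln1-201 is longer, the share of Fbln1-202 among assigned counts was lower, at 79.7% in replicate 1 and 80.8% in replicate 2. Both ends were slightly higher in replicate 1, with log2 TPM ratios of replicate 1 over replicate 2 of 0.16 for Fbln1-202 and 0.26 for Fbln1-201.

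Fbln2, a fibulin of basement membranes and elastic fibres, had a second splicing choice, named here after its values were seen. Fbln2-201 holds a cassette exon (exon 9, GRCm38 chr6:91259630-91259770, plus strand, wholly coding, 141 bases) that Fbln2-202 lacks. The exon is known to code for an EGF-like module of fibulin-2. It is printed in capitals between 30 bases of each neighbouring exon, beside the joined exons of Fbln2-202 (ending at 91257826 and starting again at 91263339).
Fbln2-201: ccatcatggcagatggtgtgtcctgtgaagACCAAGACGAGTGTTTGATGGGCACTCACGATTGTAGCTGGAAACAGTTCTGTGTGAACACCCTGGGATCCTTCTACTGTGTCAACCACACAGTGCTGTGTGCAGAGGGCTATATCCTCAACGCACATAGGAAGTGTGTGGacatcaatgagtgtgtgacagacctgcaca
Fbln2-202: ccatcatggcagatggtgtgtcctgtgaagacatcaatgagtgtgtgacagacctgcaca

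The form without the exon dominated. Fbln2-202 took 52.3% (replicate 1) and 55.2% (replicate 2) of the TPM of Fbln2, while Fbln2-201 took 1.77% in replicate 1 and 0.28% in replicate 2. Between these 2 transcripts the form that skips the exon held 96.7% (replicate 1) and 99.5% (replicate 2). The counts assigned to Fbln2-201, 120 in replicate 1 and 17.3 in replicate 2, were a small part of the 4541 and 4108 counts of the gene, so its difference between the libraries rests on few reads. Another 43.9% in replicate 1 and 42.5% in replicate 2 went to Fbln2-206, an annotated retained-intron transcript of 1612 bases that covers the last exons of the gene (chr6:91265879-91272431). Each of the remaining 5 transcripts of the gene was below 1% in both libraries.

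The other members showed less variety. Eln has a single transcript in the authors' tables, Eln-201, so its share was 100% in both libraries by construction and the alternative splicing known for elastin cannot be seen there. The same holds for Fbn2, Fbln5 and Loxl1. Eln-201 was 2583 bases long in the tables and is 3853 bases long in GENCODE M21, which lists 5 Eln transcripts. Reads from the added stretch had no place in the deposited model of Eln. The leading transcript of Fbn2 was also shorter in the tables (10480 against 11041 bases), and that of Loxl1 was longer (3338 against 3297 bases), while the leading transcripts of the other 7 members had the same length in both annotations. Lox-202 took 78.1% in replicate 1 and 79.1% in replicate 2, and Lox-201 the remaining 21.9% and 20.9%. Mfap4-202 took 89.7% in replicate 1 and 88.2% in replicate 2, and Mfap4-201, which keeps an intron of 72 bases in frame (chr11:61487007-61487078), 7.39% and 8.12%. Fbn1-201 took 99.4% in replicate 1 and 98.2% in replicate 2.

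**Figure D1:**
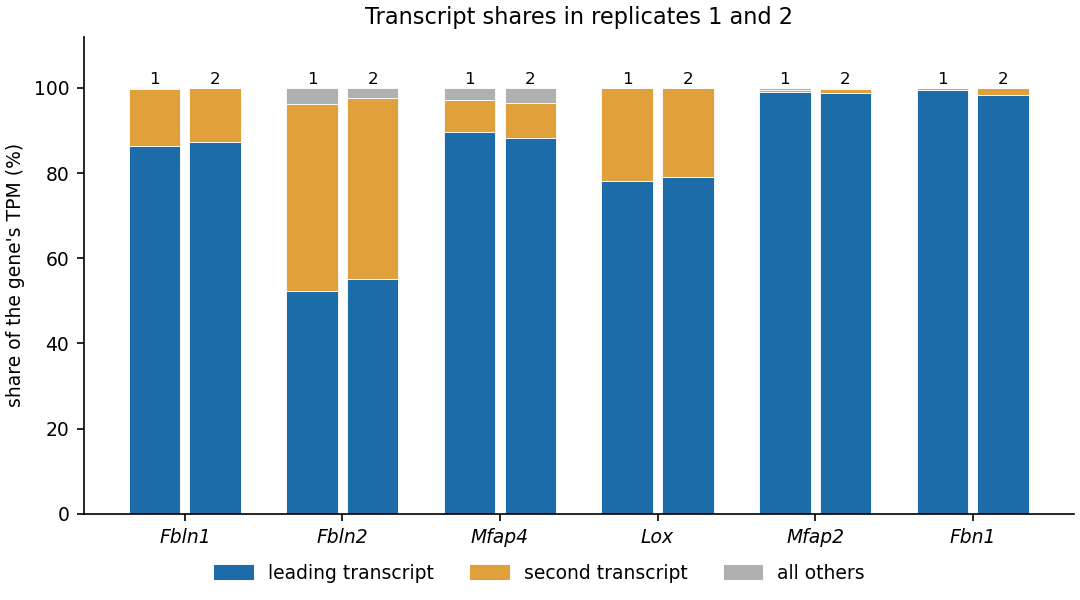
Share of each gene's TPM (y axis, percent) on its leading transcript, its second transcript and all others, for 6 members with several transcripts, with the number of the library above each bar. The leading transcript takes 86.4% and 87.3% of Fbln1 and only 52.3% and 55.2% of Fbln2, and the 2 libraries are alike within each gene.

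Mfap2, the gene of microfibril-associated glycoprotein 1, had the highest level of all members and 2 coding transcripts with different starts. Mfap2-201 (start at chr4:141010644) took 98.9% (replicate 1) and 98.8% (replicate 2) of its TPM, while Mfap2-203 (start at chr4:141010418) took 0.52% in replicate 1 and 0.30% in replicate 2. RefSeq promoter windows of 300 bases (GRCm38.p6, plus strand) near these 2 starts are shown because they belong to the used and the little used start, with every GGGCGG (the GC box, on either strand) in capitals. The window for Mfap2-201 spans chr4:141010431-141010730, and that for Mfap2-203 spans chr4:141010174-141010473, so that they overlap by 43 bases.
Mfap2-201 promoter: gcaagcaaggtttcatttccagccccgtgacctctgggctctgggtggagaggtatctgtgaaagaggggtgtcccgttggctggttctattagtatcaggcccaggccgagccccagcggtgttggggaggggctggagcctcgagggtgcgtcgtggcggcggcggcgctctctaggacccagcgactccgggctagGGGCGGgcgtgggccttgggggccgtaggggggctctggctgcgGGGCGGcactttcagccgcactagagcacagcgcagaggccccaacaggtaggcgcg
Mfap2-203 promoter: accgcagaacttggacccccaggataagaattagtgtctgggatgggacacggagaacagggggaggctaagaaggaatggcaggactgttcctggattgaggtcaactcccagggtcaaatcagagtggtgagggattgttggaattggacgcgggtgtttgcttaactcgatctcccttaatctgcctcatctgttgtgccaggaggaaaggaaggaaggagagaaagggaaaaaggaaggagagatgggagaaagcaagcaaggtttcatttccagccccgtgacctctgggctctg

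The Mfap2-201 window held 2 matches to GGGCGG, 22 CpG dinucleotides and 68.0% G and C, and the Mfap2-203 window held 0 matches, 6 CpG dinucleotides and 52.0% G and C. Over all 32851 RefSeq promoter windows of this length, 35.7% had a GGGCGG match and the median G and C content was 52.7%. The median number of CpG dinucleotides was 7.0 (quartiles 3.0 and 20.0). RefSeq windows were found for 5 members (Fbn1, Mfap2, Fbln1, Fbln2 and Fbln5, 8 windows in all). A like difference between windows was seen in other members. Windows of Fbln1 held 2 and 0 matches to GGGCGG (64.0% and 51.7% G and C). Those of Fbln5 also held 2 and 0 (65.7% and 48.7%). The window of Fbln2 held 2 matches and that of Fbn1 held 1. None of the 8 windows matched TATAAA (13.6% of all windows), TGANTCA (the AP-1 motif, 7.81%) or the CArG box by its usual degenerate pattern (1.63%), all searched on both strands. CANNTG (the E-box, 72.3% of all windows) was found in 6 of the 8.

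All 10 members were expressed in the stomach pools. Each was at 1 TPM or more in both libraries, a level that 64.5% of protein-coding genes and 35.9% of all genes reached. The members spanned a 19.2-fold range of mean TPM, and their order was the same in both libraries. Counts per member lay between 2949 and 13986, out of 43209506 counts on genes in replicate 1 and 44257493 in replicate 2. Positions are those of the whole gene in GENCODE M21 (GRCm38), with the identifiers of the authors' tables. Counts were whole, within 0.005, for 9 of the 10 members, and only Fbn1 had a fractional count.

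The microfibril-associated genes were highest. Mfap2 (ENSMUSG00000060572.13, chr4:141010418-141015984, plus strand) was at 357 TPM in replicate 1, with 341 TPM in replicate 2 (349 ± 11.7), which ranked it at percentile 98.3 of protein-coding genes. Mfap4 (ENSMUSG00000042436.8, chr11:61485431-61488900, plus strand), whose product binds fibrillin, elastin and collagen, was at 259 TPM in replicate 1 against 263 TPM in replicate 2 (261 ± 2.53). The libraries of Mfap2 and Mfap4 did not overlap in level, and Mfap2 was higher than Mfap4 by a log2 ratio of 0.42 ± 0.0625.

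The fibrillins, which form the body of the microfibril, were among the lowest members. Fbn1 (ENSMUSG00000027204.9, chr2:125300594-125507993, minus strand), the gene mutated in Marfan syndrome in humans, was at 21.3 TPM in replicate 1, with 22.8 TPM in replicate 2 (22.0 ± 1.05). Fbn2 (ENSMUSG00000024598.8, chr18:58008623-58210487, minus strand), the fibrillin known for its role in embryonic tissues, was at 28.0 TPM in replicate 1 against 29.5 TPM in replicate 2 (28.7 ± 1.04). Fbn1 was thus lower than Fbn2 in both libraries, by a log2 ratio of -0.39 ± 0.0164 (0.766-fold), a gap larger than the spread between the libraries. Together Mfap2 and Mfap4 had 12.5 times the TPM of the 2 fibrillins in replicate 1 and 11.6 times in replicate 2.

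Elastin itself stood in the middle of the order. Eln (ENSMUSG00000029675.9, chr5:134702593-134747323, minus strand) was at 57.8 TPM in replicate 1, with 59.2 TPM in replicate 2 (58.5 ± 1.02, percentile 87.5 of protein-coding genes). That was 2.66 times the level of Fbn1 (log2 ratio 1.41 ± 0.0435), and 1.17 times the sum of both fibrillins in replicate 1 and 1.13 times in replicate 2. The shorter gene model of Eln in the tables bears on these ratios, since TPM is scaled by the length of the model.

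Among the fibulins the levels differed widely. Fbln1 (ENSMUSG00000006369.10, chr15:85205949-85286535, plus strand) was at 192 TPM in replicate 1 against 171 TPM in replicate 2 (181 ± 15.3). Fbln2 (ENSMUSG00000064080.8, chr6:91212455-91272540, plus strand) followed at 46.9 TPM in replicate 1, with 41.7 TPM in replicate 2 (44.3 ± 3.67), so that Fbln1 was 4.09 times as high (log2 ratio 2.03 ± 0.00238). That ratio is of whole-gene levels. For Fbln2 they include the retained-intron transcript Fbln2-206 (20.6 TPM in replicate 1, 17.7 TPM in replicate 2) beside Fbln2-202 (24.6 and 23.0 TPM). Fbln5 (ENSMUSG00000021186.8, chr12:101746565-101819055, minus strand), which binds tropoelastin and is needed for elastic fibres in mice, was the lowest member at 19.8 TPM in replicate 1 against 16.6 TPM in replicate 2 (18.2 ± 2.23, percentile 68.2).

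Both crosslinking enzymes were expressed. Lox (ENSMUSG00000024529.9, chr18:52516067-52529867, minus strand), the founding lysyl oxidase, was at 79.9 TPM in replicate 1, with 76.7 TPM in replicate 2 (78.3 ± 2.26). Loxl1 (ENSMUSG00000032334.9, chr9:58287738-58313186, minus strand), a lysyl oxidase tied to elastin upkeep in mice, was at 40.0 TPM in replicate 1 against 34.0 TPM in replicate 2 (37.0 ± 4.22). Lox exceeded Loxl1 2.12-fold (log2 ratio 1.09 ± 0.124).

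In the full order of whole-gene TPM, Mfap2, Mfap4, Fbln1, Lox, Eln, Fbln2, Loxl1, Fbn2, Fbn1 and Fbln5, the values of 9 of 9 adjacent pairs did not overlap between the libraries. The place of Fbln2 includes its retained-intron transcript. Fbln2-202 alone (24.6 TPM in replicate 1, 23.0 TPM in replicate 2) was below Loxl1 and Fbn2 in both libraries. The narrowest gaps relative to their spread were those of Fbn1 over Fbln5 (log2 ratio 0.28 ± 0.246) and Loxl1 over Fbn2 (0.36 ± 0.217).

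**Figure D2:**
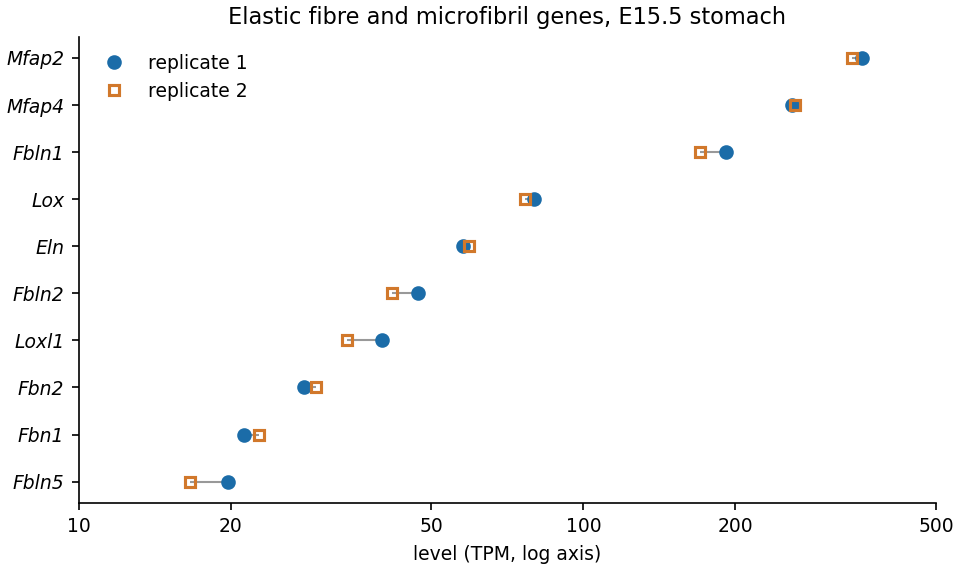
Level of each member (x axis, TPM, log axis) in replicate 1 (filled circles) and replicate 2 (open squares), ordered by the mean. Mfap2 is highest at 357 and 341 TPM and Fbln5 lowest at 19.8 and 16.6 TPM, and the distance between the libraries is small against the range over the genes.

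Read counts, which grow with transcript length, gave another order. Fbn2 had 8974 counts in replicate 1 and 9485 in replicate 2, well above the 4432 and 4562 counts of Eln, over an effective length of 10381 bases against 2484. Mfap2, with 10700 counts in replicate 1 and 10230 in replicate 2, had an effective length of 970 bases. Members differed 4.10-fold in CPM, which scales counts to the library total without a length correction, and 19.2-fold in TPM.

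**Figure D3:**
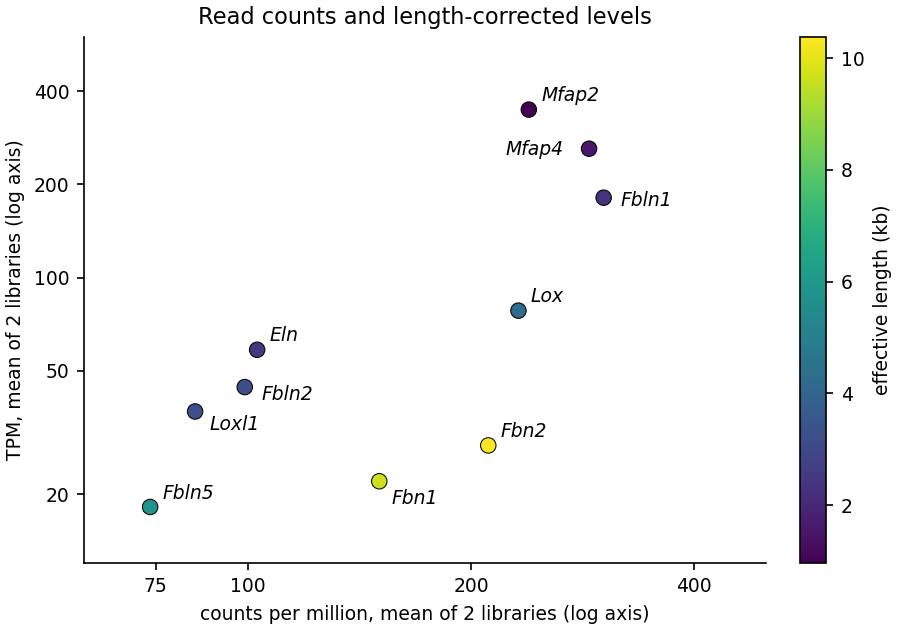
Mean CPM (x axis, log) against mean TPM (y axis, log) for the 10 members, coloured by effective length in kb. The long Fbn1 and Fbn2 have more counts than Eln, Fbln2, Loxl1 and Fbln5, but lower TPM than Eln, Fbln2 and Loxl1.

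After TMM scaling the 2 pools differed little in these genes. Each gene's counts in replicate 1 and replicate 2 were compared by the exact binomial test (two-sided), after TMM scaling, with Benjamini-Hochberg adjustment over all 20918 genes tested. The test compares these 2 libraries, not conditions, and it has no replicate check. A call needed an adjusted p below 0.05 together with a log2 ratio of 1 or more in either direction. None of the 10 members was called (0 of 10), against 6.72% of all genes tested, of which 5.91% were higher and 0.808% lower in replicate 1. Among the 3296 genes with at least as many counts as the lowest member, 0.637% were called, so 0 of 10 does not set the members apart from equally deep genes. The edgeR exact test, run at a common dispersion, called 0 of 10 members, 3.22% of all genes and 0.334% of the equally deep ones. Its dispersion was estimated from the same 2 libraries, with the difference between them included. Its 0 of 10 therefore cannot show that the pools are alike in these genes. At an unadjusted binomial p below 0.05 there were 6 members, against 40.1% of all genes and 63.4% of the equally deep genes. The log2 ratios of all 10 members ran from -0.05 to 0.29 with a median of 0.10, and the median absolute ratio was 0.10, against 0.15 over all genes tested and 0.07 over the equally deep genes.

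Fibulins and Loxl1 had the highest ratios. Fbln5 had a log2 ratio of 0.29 (exact 95% counting interval 0.22 to 0.36), Loxl1 of 0.27 (0.20 to 0.34), Fbln1 of 0.22 (0.18 to 0.25) and Fbln2 of 0.19 (0.13 to 0.25), all higher in replicate 1. Mfap2 (0.11) and Lox (0.09) also had intervals above 0. The intervals of Mfap4 (0.02), Eln (0.00), Fbn2 (-0.04) and Fbn1 (-0.05) included 0. By the adjusted p alone, without the limit on the ratio, 6 of the 10 members passed, all higher in replicate 1 (adjusted p from 6.84e-32 for Fbln1 to 4.56e-05 for Lox by the binomial test). In either direction, 55.7% of the equally deep genes passed (20.7% higher and 35.0% lower in replicate 1), as did 32.0% of all genes tested (16.8% higher and 15.2% lower). The share of members that passed was near that of equally deep genes, while most of those genes were lower in replicate 1 (1987 of 3296, median ratio -0.03). TMM scaling sets these ratios relative to the bulk of genes. Spike-in totals as library sizes moved all ratios up by 0.68, and Fbn1 and Fbn2 were then higher in replicate 1.

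**Figure D4:**
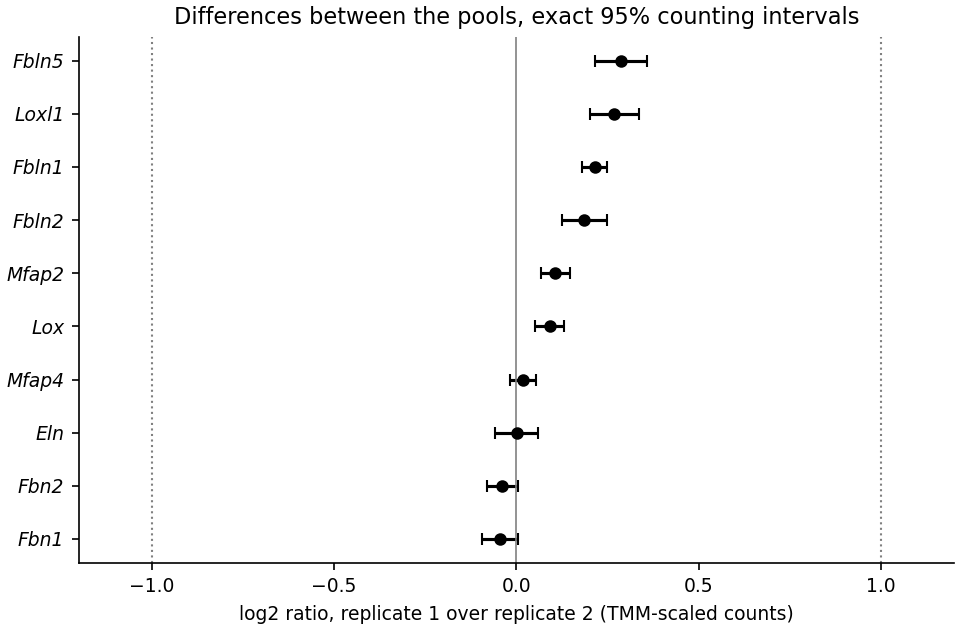
Log2 ratio of replicate 1 over replicate 2 (x axis) for each member, with exact 95% counting intervals and dotted lines at the limit for a call. All 10 lie between -0.05 and 0.29, far inside the limits.

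Marker genes of the cells that could hold these transcripts were set beside these ratios. Stomach mesenchyme was present, with the stomach homeobox gene Barx1 at 142 TPM (replicate 1) and 166 TPM (replicate 2). All 10 smooth muscle markers were detected, and their median log2 ratio was 0.01, with 0 called. All 8 fibroblast markers were detected (medians 368 TPM for replicate 1, 322 TPM for replicate 2), with a median ratio of 0.09 and 5 of 8 positive. All 6 mesothelial markers were higher in replicate 1, by 0.08 to 0.64 (median 0.23), with summed levels of 151 TPM in replicate 1 against 123 TPM in replicate 2, none at 0 and none called. The 5 pericyte markers were all lower in replicate 1 (median -0.30, summed levels 109 and 135 TPM), with 0 called. Endothelial, stomach mesenchyme and glandular epithelial lists had medians of -0.09, -0.34 and -0.07. Exocrine pancreas markers were all lower in replicate 1 (median -0.48, from -0.65 to -0.28), with 0 called. Cartilage and lung were little represented, with 2 of 5 and 1 of 3 markers detected. Liver, squamous and erythroid markers had far larger ratios (medians 1.70, 0.88 and 0.87), and striated muscle markers had a median of -1.32. Higher in replicate 1 by a call were 6 of 7 liver, 4 of 8 squamous and 3 of 7 erythroid markers. Of the striated muscle markers 5 of 7 were called lower. Over all genes tested 6.72% were called in either direction. The part of these cells in the small ratios of the members was not tested.

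**Figure D5:**
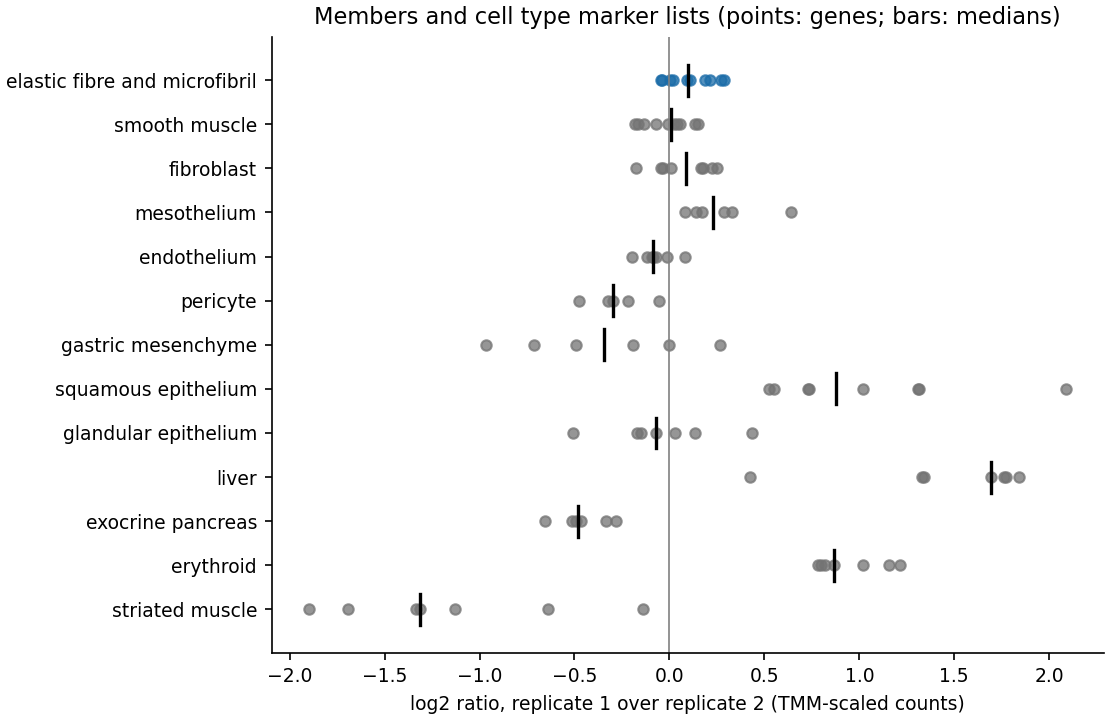
Log2 ratio of replicate 1 over replicate 2 (x axis) of each gene (points) and list median (bars) for the 10 members and 12 lists of cell type markers. The members have a median of 0.10. Smooth muscle, fibroblast, endothelial and glandular epithelial medians lie between -0.09 and 0.09, and the mesothelial median is 0.23. Pericyte, stomach mesenchyme and exocrine pancreas medians are -0.30, -0.34 and -0.48. Squamous, liver, erythroid and striated muscle medians lie farther from 0.

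Of 59 other genes of elastic fibre assembly, binding and breakdown, 51 were detected, as were 64.5% of protein-coding genes. Of the 59, 1 was called different between the pools (background 6.72% of all genes tested). Calls were rarer among deep genes (0.637% of those with at least the counts of the lowest member). No share matched to the counts of the 59 genes was computed. The 59 genes had a median log2 ratio of -0.05, against 0.00 over all genes tested.

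Other microfibril and fibulin genes were well represented, with 11 of 12 detected (medians 17.6 TPM for replicate 1, 20.5 TPM for replicate 2) and 0 called. Emilin1, an elastin microfibril interface protein, was at 210 TPM (replicate 1) and 211 TPM (replicate 2). Efemp2, the gene of fibulin-4, which is required for elastin crosslinking in mice, was at 120 TPM in replicate 1 against 125 TPM in replicate 2, well above Fbln5. Vtn (vitronectin), also abundant in liver, was at 55.8 TPM (replicate 1) and 48.9 TPM (replicate 2). Tnxb was not above the limit in both libraries, with 1.12 TPM in replicate 1 against 0.79 TPM in replicate 2.

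Of the other lysyl oxidases and helpers of crosslinking, 8 of 10 were detected and 0 were called. Fn1 (fibronectin), on which microfibrils assemble, was at 95.6 TPM (replicate 1) and 101 TPM (replicate 2), and the collagen chaperone Fkbp10 at 73.8 and 82.4 TPM. Loxl2 was at 44.0 TPM in replicate 1 against 40.6 TPM in replicate 2, close to the level of Loxl1. Of the procollagen proteinase relatives, Tll1 (0.65 TPM for replicate 1, 1.00 TPM for replicate 2) was below 1 TPM in replicate 1 only. Tll2 (0.07 and 0.10 TPM) was below it in both libraries.

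Genes of proteins that tie microfibrils to TGF-beta differed widely in level. Of the latent TGF-beta binding proteins and related ADAMTS genes, 10 of 13 were detected and 0 were called. Ltbp4, which is needed for elastic fibre assembly in mice, was at 126 TPM (replicate 1) and 130 TPM (replicate 2). Adamts10 followed at 37.2 and 39.5 TPM and Ltbp1 at 21.5 and 22.6 TPM. Ltbp2 (0.97 TPM for replicate 1, 0.62 TPM for replicate 2), Adamtsl3 (1.04 and 0.90 TPM) and Adamts6 (0.92 and 1.37 TPM) were below 1 TPM in at least 1 library. Of the ligands, Tgfb3 was at 21.1 TPM in replicate 1 against 24.9 TPM in replicate 2, Tgfb2 at 17.6 and 17.8 TPM, and Tgfb1 at 2.49 and 1.94 TPM.

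All 9 integrin genes whose products bind elastic fibre proteins were detected, with 0 called. Itgb1 led at 249 TPM (replicate 1) and 267 TPM (replicate 2), followed by Itgav (68.2 and 62.2 TPM) and Itgb5 (40.6 and 41.3 TPM).

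Of 12 elastin-degrading enzymes 10 were detected. The highest were the pancreatic digestive elastases Cela2a (428 TPM for replicate 1, 389 TPM for replicate 2), Cela1 (209 and 257 TPM) and Cela3b (190 and 222 TPM). All 6 exocrine pancreas markers were detected too, with summed levels of 6623 TPM in replicate 1 against 9121 TPM in replicate 2. Each of these markers was lower in replicate 1 (median log2 ratio -0.48). So were Cela1 (-0.26) and Cela3b (-0.19), while Cela2a was higher (0.15). The part of pancreas in the Cela levels was not tested. Elane, the neutrophil elastase gene, was the only gene called different among the 59 genes of these 6 lists, which leave out the cell type markers. It was at 9.75 TPM in replicate 1, with 3.34 TPM in replicate 2 (247 and 85 counts), higher in replicate 1 by a log2 ratio of 1.58 (adjusted p = 3.38e-19 by the exact binomial test and 0.021 by the edgeR exact test). Liver and erythroid marker lists were also higher in replicate 1 (medians 1.70 and 0.87), and their part in the Elane ratio was not tested. Mmp12, the macrophage elastase, was listed at 0.12 TPM in replicate 1 against 0.23 TPM in replicate 2, and Mmp7 at 0.67 and 0.73 TPM.

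Some members lie across other genes, and how strand was treated in the counting is not stated in the labels or file headers. Mapk7, on the opposite strand, overlaps the 3′ end of Mfap4 (chr11:61488812-61488900) and was at 38.7 TPM (replicate 1) and 41.3 TPM (replicate 2). Gm9913, opposite to Fbn1, had 28.9 counts in replicate 1 and 45.3 in replicate 2, against 6379 and 6777 for Fbn1. Gm26507, opposite to Fbn2, had 60 counts in replicate 1 and 73 in replicate 2. The antisense genes Gm30003, opposite to Eln (overlap chr5:134747042-134747323), and AC161119.1, opposite to Lox (overlap chr18:52528661-52529867), have no entry in the authors' tables. For Eln and Lox, whole counts therefore cannot show whether reads of these antisense genes were included. Without strand, reads from such overlaps cannot be told apart. Counts of Mfap4, Mapk7, Fbn2 and Gm26507 were whole in both libraries, with no sign of reads split between genes. Those of Fbn1 (6379.07 in replicate 1, 6776.72 in replicate 2) and Gm9913 (28.93 and 45.28) were fractional in both libraries. How reads were divided between these 2 genes was not tested.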

How the data were processed

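Per the labels, each library was built from 10 ng of total RNA longer than 200 nucleotides, to which ERCC spike-ins had been added. The authors' gene and transcript tables rest on mm10 and annotation M4, per the deposited text file. The programs used and how strand was handled are not stated there. Per the file headers, the authors gave an expected count, TPM, FPKM and posterior means for each feature, and, for each transcript, its percent of the TPM of its gene. Spike-ins are included in TPM (4.01% for replicate 1, 6.51% for replicate 2).

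Symbols and coordinates came from GENCODE M21 (98.0% of gene identifiers matched). Expected counts were rounded for tests. Genes reaching 10 counts over both libraries were tested by an exact binomial test in scipy 1.17.1 with TMM sizes from edgeR 4.0.16 and a prior count of 0.5. The quasi-likelihood test could not be fitted, because 1 library per pool leaves no residual degrees of freedom. For the exact test of edgeR, the dispersion was that of an intercept-only fit to the same 2 libraries (coefficient of variation 0.20). DESeq2 1.42.0 size factors were an alternative. Named are all members, the 3 highest genes of each of 6 further lists, the genes of those lists called different or below 1 TPM, and Eln and Fbln1 transcripts. Other transcripts were chosen after their values were seen. The members and lists were chosen with earlier results of these data known. Nothing in the labels gives separate extraction days, and the tables record no molecular identifiers, so intervals cover counting error only.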

Additional observations from a re-analysis of the deposited data

How the results depend on the processing

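The count of members called different was 0 under all scalings, without a filter on low counts, from summed transcript tables and with the edgeR exact test, and 6 by the adjusted p alone. Those settings with 0 called between 3.22% (edgeR exact test) and 16.7% (spike-in totals) of all genes. With spike-in totals Fbln5 (0.967) and Loxl1 (0.949) lay just under the limit of 1, so the 0 there depends on the limit. The adjusted p alone passed 32.0% of all genes and 55.7% of those as deep as the members. For the 59 further genes the count called was 6 with spike-in totals and 24 by the adjusted p alone. With spike-in totals the median ratio of the members was 0.78, and Fbn1 and Fbn2 turned to 0.64 each. Eln, near 0, turned to -0.002 with DESeq2 size factors, -0.007 with library totals and -0.036 from TPM, and Mfap4 to -0.020 from TPM. Counts without a length correction gave log2 level ratios of -0.49 for Fbn1 over Fbn2, 1.46 for Lox over Loxl1 and 1.61 for Fbln1 over Fbln2, and reversed Mfap2 over Mfap4 (-0.27) and Eln over Fbn1 (-0.55). Posterior mean TPM gave 2.01 for Fbln1 over Fbln2. The share of Fbln1-202 was 80.2% from counts. These shifts follow from the construction of the alternatives (length, scaling or limit), except that of posterior means, whose cause was not tested. No paired analysis was possible because there is 1 group. Leaving out either library kept all level ratios and shares within 1 SD, which with 2 libraries holds by construction. With 2 libraries, the spread of each value is known only roughly.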
